A study of Mus musculus with 9 samples.

Results

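The 8 genes described here mark Schwann cells and the glial descendants of the neural crest: Sox10, Foxd3, Egr2, Erbb3, Ngfr, Cdh19, Fabp7 and Mbp. They were listed by name as genes of the Schwann cell lineage, and all 8 were found among the 43548 gene identifiers of the deposited FPKM table. The list was chosen by name, with the FPKM of these genes in the cranial base and both vaults already known, so their levels and differences in these 9 libraries are given as a description, without a test. FPKM count fragments per length of transcript, scaled to the fragments mapped in a library, so that values of different genes can be set side by side.

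The study asked how raised FGF8 signaling alters the developing skull, and RNAseq was performed on tissue from mouse embryos of mixed strain at E14.5. MCAGF8 embryos carry Msx2-Cre together with a CAGF8 allele that produces Fgf8b once Cre has acted, and Msx2-Cre acts in the surface ectoderm. Controls come from the same crosses and lack Cre, so that they hold the allele in its silent form, although the sample labels call them wildtype. Both cranial vaults, MCAGF8 and control, and the cranial base of controls were each represented by 3 libraries, every library a pool of 3 tissue samples that had been grouped for similar RNA concentration. Vault tissue was taken after the skin had been peeled off. Base cartilage was dissected from control embryos once the brain was out, and the sources do not say whether pools of both control tissues share embryos. Errors and p-values therefore describe the spread between pools, not between single embryos.

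Neural crest cells that travel along growing nerves become Schwann cell precursors, which survive on axonal neuregulin sensed by the Erbb3 and Erbb2 receptors. Precursors mature into immature Schwann cells that may wrap single axons with myelin, and some precursors leave the nerve and become melanocytes. Sox10 acts through the whole glial branch and in melanocytes, Foxd3 in early crest and precursors, and Egr2 (Krox20) at the onset of myelination. In the head, such cells accompany the branches of cranial nerves and cover the neurons of cranial ganglia as satellite glia.

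FPKM of a library summed to between 793249.1 and 1315981.5, and 16006 to 17281 genes in each reached 1 FPKM. The read depth is unknown, since FPKM from Cufflinks do not return fragment counts, so no counting interval is given. Fgf8 itself did not separate the groups. It was at 13.5, 8.25 and 3.01 FPKM in the control vault, 19.5, 9.43 and 13.03 FPKM in the MCAGF8 vault, and 3.78, 17.4 and 5.82 FPKM in the control base, so it gives no check of the labels here. Values are listed below in the order of replicates 1, 2 and 3. In bulk tissue a lower level can mean fewer cells of a type or less RNA per cell, and these cannot be told apart.

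**Figure D1:**
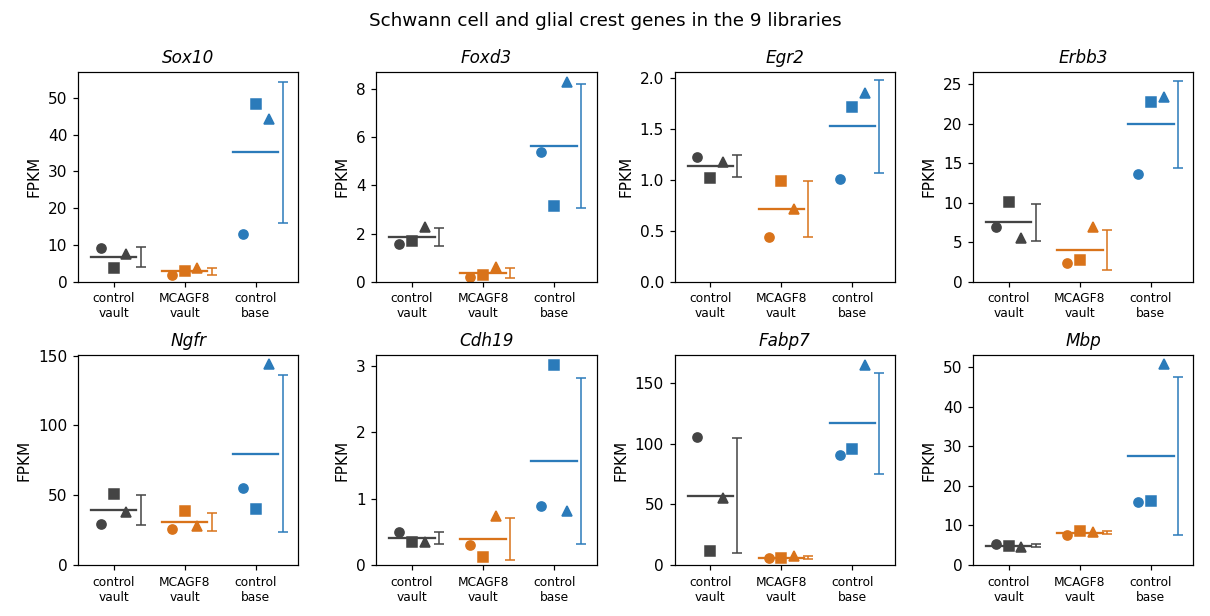
FPKM of the 8 genes (vertical axes, linear, from 0) in the control cranial vault, MCAGF8 cranial vault and control cranial base, with circles, squares and triangles for replicates 1, 2 and 3, a line at the mean and a bar for ± 1 SD (n = 3). All 8 genes had their highest value in a base library, and for 6 of 8 the lowest value was that of MCAGF8 vault replicate 1.

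Among the transcription factors, Sox10 (ENSMUSG00000033006, chr15:79154908-79165240 of GRCm38, minus strand) was at 9.13, 3.67 and 7.51 FPKM in the control vault, 1.89, 3.05 and 3.65 FPKM in the MCAGF8 vault, and 13.1, 48.2 and 44.2 FPKM in the control base. The 3 groups did not overlap, although the lowest control vault value and the highest MCAGF8 value were next to each other. The mean of the base was 5.20 times that of the control vault and 12.3 times that of the MCAGF8 vault, and the control vault mean was 2.36 times the MCAGF8 mean. On the log2(FPKM + 1) scale used for all differences below, which understates the change of genes with low FPKM, the MCAGF8 vault differed by -0.96 ± 0.49 (SE) from the control vault. The spread within the base was wide, with an SD of 19.2 FPKM around a mean of 35.2 FPKM, because base replicate 1 stood far below the others.

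Foxd3 (ENSMUSG00000067261, chr4:99656299-99658622, plus strand), a forkhead repressor of early crest and of Schwann cell precursors, had the largest ratio between the vaults after Fabp7. It was at 1.57, 1.71 and 2.27 FPKM in the control vault and at 0.192, 0.292 and 0.604 FPKM in the MCAGF8 vault. The base libraries had 5.40, 3.16 and 8.30 FPKM, and the 3 groups did not overlap. The control vault mean was 5.10 times and the base mean 15.5 times the MCAGF8 mean.

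The stretch just before the annotated Foxd3 transcript is shown because Foxd3, like Sox10, separated all 3 tissues. It was taken from RefSeq's GRCm38.p6 table of promoters, which held 4 of the 8 genes (Foxd3, Egr2, Ngfr and Fabp7), and covers the 250 bases of chr4:99656049-99656298 on the plus strand. Capitals mark TGACGTCA, the cAMP response element, and CACGTG, an E-box. Both read the same on either strand, and they do not overlap each other.
Foxd3: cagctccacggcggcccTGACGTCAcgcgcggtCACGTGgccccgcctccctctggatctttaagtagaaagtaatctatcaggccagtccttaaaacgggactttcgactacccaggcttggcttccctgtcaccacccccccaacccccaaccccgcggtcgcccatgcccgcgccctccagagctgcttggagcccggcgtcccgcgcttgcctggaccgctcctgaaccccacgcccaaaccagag
Of 32851 promoter windows of the same length, 1.55% hold TGACGTCA and 6.02% hold CACGTG. These are letter matches in a window, and the motifs were chosen after the sequence had been seen. No expression value here bears on whether a factor binds them.

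Egr2 (ENSMUSG00000037868, chr10:67535475-67542188, plus strand), the zinc finger factor of myelination, was the least expressed of the 3 factors in the base. Control vault libraries had 1.22, 1.02 and 1.17 FPKM, MCAGF8 vault libraries 0.435, 0.986 and 0.712 FPKM, and base libraries 1.00, 1.72 and 1.86 FPKM. All MCAGF8 values lay under all control vault values, but the distance from 0.986 to 1.02 FPKM is small beside the SD of 0.275 FPKM in the MCAGF8 vault. Base replicate 1 lay just below every control vault library and the other base libraries above them, so the control tissues overlapped. Of these factors, then, Sox10 and Foxd3 differed between base and control vault without overlap, and Egr2 did not.

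Erbb3 (ENSMUSG00000018166, chr10:128567523-128589652, minus strand), the neuregulin receptor of Schwann cell precursors, was at 6.92, 10.1 and 5.53 FPKM in the control vault and 2.43, 2.76 and 6.87 FPKM in the MCAGF8 vault. The vaults overlapped, since MCAGF8 replicate 3 reached the level of the controls. Base libraries had 13.6, 22.7 and 23.3 FPKM, all above every vault library, with a mean 2.64 times that of the control vault and 4.95 times that of the MCAGF8 vault.

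Ngfr (ENSMUSG00000000120, chr11:95568818-95587735, minus strand) encodes the p75 neurotrophin receptor, present on migrating crest and immature Schwann cells and also on some mesenchyme and neurons. It was at 29.2, 50.8 and 37.7 FPKM in the control vault, 26.1, 38.6 and 28.0 FPKM in the MCAGF8 vault, and 55.1, 39.9 and 144 FPKM in the base. The vaults overlapped and their means, 39.2 and 30.9 FPKM, differed by less than the SD of the control vault (10.9 FPKM). Base replicate 2 lay within the control vault range, and without base replicate 3 the log2 difference of base and control vault was 0.29 in place of 0.82. Both receptors thus overlapped between the vaults, and Erbb3 alone separated the base from the control vault.

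Cdh19 (ENSMUSG00000047216, chr1:110888326-110977584, minus strand), a cadherin of Schwann cell precursors, was below 1 FPKM in every vault library. It was at 0.504, 0.349 and 0.348 FPKM in the control vault, 0.303, 0.120 and 0.739 FPKM in the MCAGF8 vault, and 0.892, 3.01 and 0.809 FPKM in the base. Base libraries lay above every vault library, while the vaults overlapped with means of 0.400 and 0.387 FPKM. The vault difference of -0.04 changed sign in 5 of 17 alternative analyses, so no direction is given for it. MCAGF8 replicate 3 had the highest Cdh19 and Erbb3 of its group.

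Mbp (ENSMUSG00000041607, chr18:82475146-82585637, plus strand) encodes myelin basic protein, the cytoplasmic protein that compacts myelin. Its locus also gives longer Golli transcripts from an upstream promoter, which are used outside myelinating glia, and values per gene do not separate these transcripts. Mbp was at 5.34, 4.82 and 4.63 FPKM in the control vault, 7.66, 8.50 and 8.44 FPKM in the MCAGF8 vault, and 16.0, 16.1 and 50.7 FPKM in the base. It was the one gene of the 8 for which the MCAGF8 vault lay wholly above the control vault, with means of 8.20 ± 0.470 and 4.93 ± 0.366 FPKM (SD, n = 3), a ratio of 1.66. The log2 difference was 0.63 ± 0.39 (SE), and it lay between 0.60 and 0.79 in all 18 alternative analyses. The base was above both vaults in every library, and base replicate 3 stood far above the other base libraries.

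Mbp is also made by oligodendrocytes of the brain. The defining oligodendrocyte genes Mog, Mobp and Opalin were at 0.137 FPKM or below in every library. The precursor genes Olig1 and Olig2 were at or below 0.0287 FPKM in all 3 MCAGF8 libraries, and their control vault values are given below. In the base Olig1 was at 0.323, 0.0913 and 4.90 FPKM and Olig2 at 0, 0 and 1.60 FPKM. Both were highest in base replicate 3, the library with most Mbp. Cspg4, the remaining marker of the list of 6, which pericytes also express, was at 15.9, 17.1 and 13.3 FPKM in the control vault and 13.1, 16.7 and 24.8 FPKM in the MCAGF8 vault. The part of oligodendrocytes in the Mbp levels of the vaults and the base was not tested.

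Fabp7 (ENSMUSG00000019874, chr10:57784881-57788450, plus strand), a fatty acid binding protein of Schwann cell precursors, satellite glia and also of radial glia in the brain, had the widest range. It was at 105, 11.2 and 55.4 FPKM in the control vault and 5.55, 5.73 and 7.25 FPKM in the MCAGF8 vault. Base libraries had 90.5, 95.5 and 165 FPKM. All MCAGF8 values lay below all others, but control vault replicate 2 was far nearer to them than to control vault replicate 1, and the control tissues overlapped. The control vault mean of 57.3 ± 47.1 FPKM (SD, n = 3) was 9.27 times the MCAGF8 mean of 6.18 ± 0.936 FPKM.

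The 208 bases before the annotated Fabp7 transcript, chr10:57784673-57784880 on the plus strand of GRCm38.p6 from RefSeq, are shown because Fabp7 differed most between the vaults. Capitals mark ATTGG, which is the CCAAT box read on the other strand and occurs at 2 places.
Fabp7: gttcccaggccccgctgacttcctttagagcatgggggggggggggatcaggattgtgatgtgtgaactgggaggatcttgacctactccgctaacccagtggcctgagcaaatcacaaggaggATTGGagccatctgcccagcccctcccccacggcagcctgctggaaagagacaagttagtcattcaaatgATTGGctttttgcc
Of the 32851 windows of 250 bases, 33.8% hold CCAAT on either strand, so the match is common. The SOX core letters ACAAAG and ACAATG (in 16.5% and 10.7% of windows), the octamer ATGCAAAT (1.6%) and GTGGGAA (5.42%) were searched on both strands and were not found in either stretch shown, nor was CCAAT in that of Foxd3. This says only that these letters are not in these windows.

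Some genes of the brain had, like Fabp7, their lowest control vault level in replicate 2, and their part in the Fabp7 difference was not tested. Sox2, a factor shared by neural progenitors and immature glia, was at 5.18, 0.307 and 3.87 FPKM in control vault replicates 1, 2 and 3. Olig1 was at 4.05, 0.0294 and 5.80 FPKM, Olig2 at 4.02, 0.0773 and 3.28 FPKM, the neuronal factor Neurod1 at 5.14, 0.0223 and 2.06 FPKM, and the forebrain factor Lhx2 at 18.9, 0.633 and 14.0 FPKM. In the MCAGF8 vault Neurod1 was at 0.0809, 0 and 0.0231 FPKM, but Lhx2 at 3.81, 9.81 and 3.38 FPKM. Emx2 was at 17.1, 3.72 and 14.8 FPKM in the control vault and 12.6, 5.99 and 7.87 FPKM in the MCAGF8 vault. Every MCAGF8 library thus had more Lhx2 and Emx2 than control vault replicate 2, but less Fabp7. The whole list of 12 brain progenitor markers summed to 79.6, 27.9 and 58.3 FPKM in the control vault, 42.8 to 55.3 FPKM in the MCAGF8 vault and 27.3 to 68.6 FPKM in the base. Most of the MCAGF8 sum was Slc1a3 (36.0, 26.2 and 30.5 FPKM, against 30.6, 22.1 and 20.7 FPKM in the control vault). Of the 8 markers of this list that were tested, 7 were lower in the MCAGF8 vault and 1 higher, with a median difference of -0.52. Among the control vault libraries, replicate 2 thus had the lowest sum of the 12 markers and also the least Fabp7. In an alternative added after these values had been seen, the control vault was represented by replicate 2 alone, with its spread taken from the other groups. Replicate 2 had the least Fabp7 and Sox10 of the control vault, so this choice fixed in advance that their vault differences would shrink. The values below therefore describe how much rests on replicates 1 and 3, and nothing on a cause is read from them. The vault difference of Fabp7 was then -0.77 in place of -2.55, and the difference of base and control vault was 3.22 in place of 1.44. Sox10, whose control vault level was likewise lowest in replicate 2, then differed by -0.30 in place of -0.96. Foxd3 differed by -1.004 and Mbp by 0.66 under the same alternative, close to their values with all libraries (-1.07 and 0.63).

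**Figure D2:**
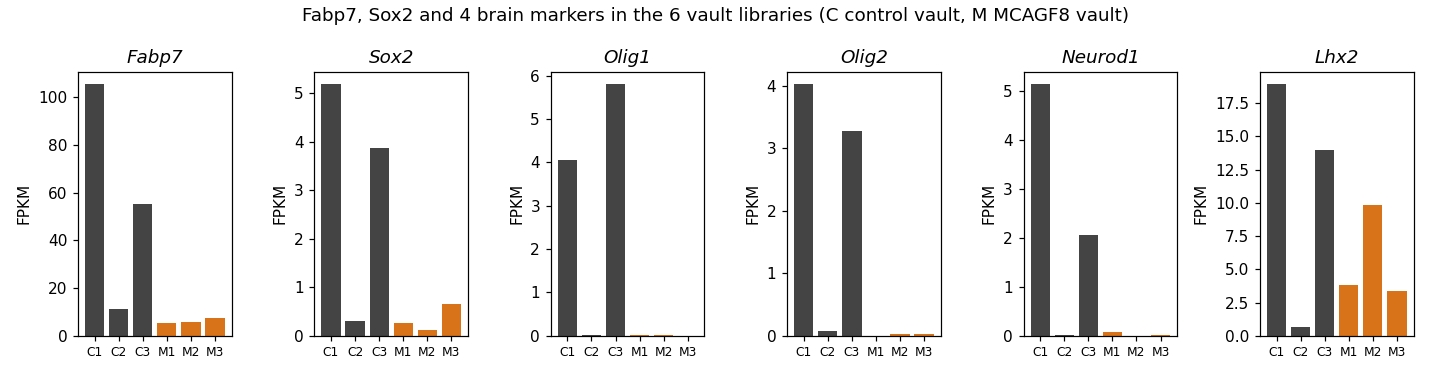
FPKM (vertical axes, linear, from 0) of Fabp7, Sox2 and the brain markers Olig1, Olig2, Neurod1 and Lhx2 in the control vault (C1 to C3, grey) and MCAGF8 vault (M1 to M3, orange) libraries, 1 bar per library. In control vault replicate 2 Fabp7 was at 11.2 FPKM and Lhx2 at 0.633 FPKM, against 105 and 18.9 FPKM in replicate 1.

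Side by side, 7 of the 8 genes were lower in the MCAGF8 vault than in the control vault on the mean of log2 values, with a median difference of -0.58 for the 8 genes and -0.01 for all 18714 genes tested, those averaging 0.5 FPKM or more. Without overlap, 4 were lower (Sox10, Foxd3, Egr2 and Fabp7) and 1 was higher (Mbp). Of all genes tested, 9.35% lay lower and 9.9% higher without overlap. The comparisons that follow share libraries with this one and are not independent of it.

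Against the control base, all 8 genes were lower in every MCAGF8 vault library, as were 13% of all genes. The log2 differences ran from -0.56 ± 0.23 (SE) for Egr2 through -1.42 ± 0.39 for Mbp, -2.13 ± 0.37 for Erbb3, -2.22 ± 0.30 for Foxd3 and -3.06 ± 0.49 for Sox10 to -3.99 ± 0.64 for Fabp7, with a median of -1.78 against -0.07 over all genes. The control base exceeded the control vault without overlap for 5 of the 8 genes (Sox10, Foxd3, Erbb3, Cdh19 and Mbp), which was also so for 8.86% of all genes. Here the largest differences were those of Sox10 (2.09 ± 0.49) and Mbp (2.06 ± 0.39), and the median was 1.22 against 0.07. Since the genes were chosen with these comparisons known, nothing is read from these counts. In the MCAGF8 vault Mbp lay between the control tissues, whereas Sox10, Foxd3, Egr2 and Fabp7 were lowest there.

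**Figure D3:**
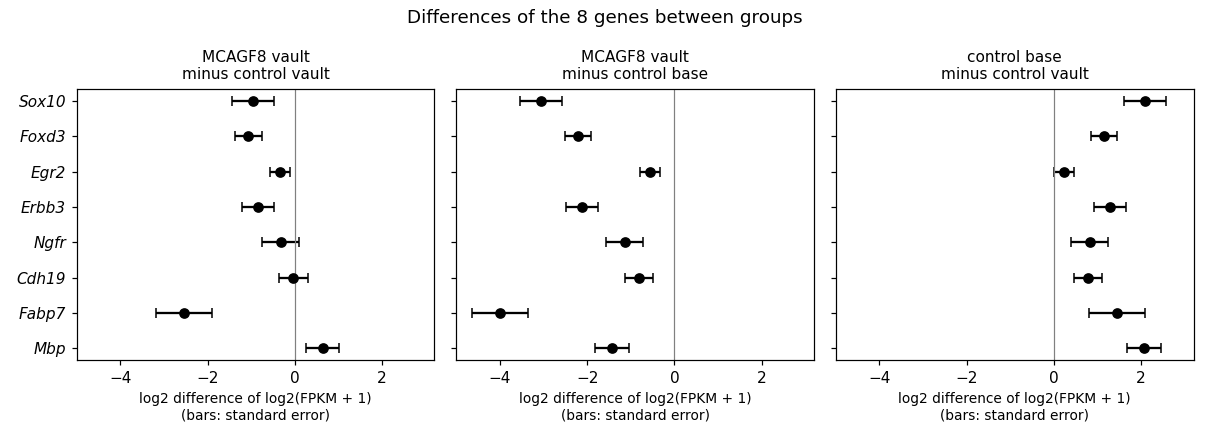
Differences of the 8 genes between groups on the log2(FPKM + 1) scale (horizontal axes), with bars for the standard error of the limma fit and a vertical line at 0. In the MCAGF8 vault minus control vault panel Mbp (0.63) is the one gene to the right of 0 and Fabp7 (-2.55) lies farthest to the left.

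The genes did not keep a fixed proportion to Sox10 across tissues. Per unit of Sox10, Mbp ranged from 0.584 to 1.31 in the control vault and from 0.334 to 1.22 in the base, but from 2.31 to 4.05 in the MCAGF8 vault, above all other libraries. Foxd3 per Sox10 was 0.172 to 0.466 in the control vault and 0.0957 to 0.165 in the MCAGF8 vault, and did not overlap between the vaults. Fabp7 per Sox10 was likewise lower in the MCAGF8 vault (1.88 to 2.93) than in the control vault (3.05 to 11.5), but its range in the base (1.98 to 6.92) covered parts of both. Egr2 per Sox10 was lowest in the base, at 0.0356 to 0.0767, against 0.134 to 0.323 over the 6 vault libraries. Ngfr per Sox10 overlapped between the vaults, at 3.201 to 13.8 and 7.66 to 13.8. These are ratios of small values in 3 pools a group, and no test was made.

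Over the 9 libraries, Sox10 followed the mean of the other 7 genes most closely (Pearson's r of 0.964), followed by Erbb3 (0.916), Foxd3 (0.907), Egr2 (0.844), Fabp7 (0.813), Mbp (0.730), Ngfr (0.702) and Cdh19 (0.605). These are descriptions over libraries of 3 tissues, so each value mixes differences between tissues with those between replicates, and the shares were not separated. The 10 other genes most like the mean of the 8, out of 15344 genes averaging 2 FPKM or more, were Akap6, Zdhhc2, Ednrb, Aatk, Kcnmb2, Nefl, Atp1b1, Tox2, Nefm and Gal3st1, with r from 0.965 to 0.975. Ednrb is the endothelin receptor of crest cells, Gal3st1 makes the myelin lipid sulfatide, and Nefl and Nefm encode axonal neurofilaments, so both glial and neuronal genes were among them. Among those closest to Sox10 alone were Gal3st1 (0.968), Plekhb1 (0.965), Slc6a15 (0.963) and Slc17a6 (0.958).

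Gal3st1 was at 2.21, 1.61 and 2.93 FPKM in the control vault, 0.947, 1.57 and 1.46 FPKM in the MCAGF8 vault, and 2.96, 4.51 and 5.62 FPKM in the base. Its order of groups was that of Sox10, without overlap. Ednrb, at 14.6, 15.6 and 11.6 FPKM, then 8.97, 8.50 and 10.1 FPKM, and 21.2, 28.2 and 34.4 FPKM, had the same order, again without overlap. Both genes were picked for their likeness to the 8 genes in these same libraries, so the shared order follows from the choice and is no separate result.

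Whether other genes of the lineage differed was tested on a list of 43, itself chosen with earlier results of these data known. Of these, 39 averaged 0.5 FPKM or more. Gfap, Gldn, Pmp2 and Gjb1 fell below it and were not tested. Because of that choice, the counts of this list are no independent support. Calls required a raw p under 0.05 and, after Benjamini-Hochberg adjustment over all genes of the limma fit, a p under 0.1. Between the vaults, 2 of the 39 were called, 1 in each direction, where 0.604% of all genes were called, 0.23% higher and 0.374% lower. At the raw p alone 6 passed, against 6.34% of all genes. The list as a whole was divided, with 18 genes higher and 21 lower and a median difference of -0.04.

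Rxrg, the retinoid X receptor gamma, which takes part in myelination and is also used in skeletal muscle, was at 4.50, 7.05 and 4.60 FPKM in the control vault and 0.882, 0.861 and 1.02 FPKM in the MCAGF8 vault. The groups did not overlap, and Rxrg fell by 1.71 on the log2 scale (SE 0.24, limma adjusted p = 0.0374). Its base level was 12.5, 7.997 and 10.9 FPKM. Markers of skeletal muscle went the same way: the 10 of them summed to 817, 5196 and 1410 FPKM in the control vault, 48.7, 58.3 and 192 FPKM in the MCAGF8 vault, and 10276, 1568 and 4291 FPKM in the base. Within both control tissues the library with most muscle RNA was the one with most Rxrg, and the part of muscle in the Rxrg difference was not tested.

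Tfap2a, an AP-2 factor of the neural crest that is also expressed in surface ectoderm, was at 1.42, 0.528 and 0.973 FPKM in the control vault and 7.74, 5.28 and 5.87 FPKM in the MCAGF8 vault. It rose by 1.90 on the log2 scale (SE 0.33, limma adjusted p = 0.0723). In the base it was at 1.48, 1.54 and 4.20 FPKM. The 10 epidermis markers summed to 23.4, 103 and 13.6 FPKM in the control vault and 433, 390 and 1002 FPKM in the MCAGF8 vault. In the base they summed to 489, 61.3 and 675 FPKM. Krt15 made up most of the sum of base replicate 1, at 274 FPKM against 72.2 FPKM in MCAGF8 replicate 1. Krt5 went the other way, at 39.2 against 149 FPKM in the same libraries, so equal sums do not mean equal levels of the markers. The part of epidermis in the Tfap2a difference was not tested. Neither vault call held without control vault replicate 1 or 3 or without any 1 of the 3 MCAGF8 libraries, where limma called 0 genes of the list and 4 to 6 had a raw p under 0.05, and the call of Tfap2a was also lost without control vault replicate 2.

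Against the control base, 21 of the 39 genes were called, 18 lower and 3 higher in the MCAGF8 vault, where 8.39% of all genes were called (5.41% lower and 2.98% higher), with a list median of -0.93. Of the regulators, Sox2, Sox8 and Rxrg fell, and Tfap2a rose. Sox2 was at 0.271, 0.125 and 0.646 FPKM in the MCAGF8 vault and 11.9, 8.94 and 21.6 FPKM in the base, and fell by 3.42 on the log2 scale (limma adjusted p = 0.0108). Zeb2, a repressor that Schwann cells need for myelination and mesenchyme also expresses, was not called, at 31.8 to 62.6 FPKM in the MCAGF8 vault and 24.9 to 29.4 FPKM in the base.

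Among surface and secreted proteins of precursors, all 8 were lower and 5 were called, among them Dhh, Gfra3, Ednrb and L1cam. Desert hedgehog (Dhh), the signal from Schwann cells to the nerve sheath, was at 0.544, 1.23 and 0.702 FPKM in the MCAGF8 vault and 3.98, 2.76 and 8.69 FPKM in the base. It fell by 1.65 (limma adjusted p = 0.0246), and Ednrb fell by 1.48 (limma adjusted p = 0.00822). Gap43, a growth protein of axons and precursors, was not called, at 101 to 122 FPKM in the MCAGF8 vault and 112 to 414 FPKM in the base.

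Genes of immature Schwann cells gave 5 calls among 10 tested (S100b, Gjc3, Scn7a, Ptprz1 and Cadm4), each lower. The gap junction gene Gjc3 was at 0.123, 0.218 and 0.546 FPKM in the MCAGF8 vault and 1.47, 2.14 and 2.44 FPKM in the base. S100b is also made by cartilage cells, and base replicate 2, in which the 8 chondrocyte markers summed to 7597 FPKM against 601 and 1048 FPKM in the other base libraries, had the highest S100b at 102 FPKM. In the MCAGF8 vault these markers summed to 2116, 3622 and 3878 FPKM, more than in base replicates 1 and 3, while S100b was lower, at 29.2, 37.1 and 45.2 FPKM against 59.8 and 61.4 FPKM. The part of cartilage in this difference was not tested. Cmtm5, likewise highest in base replicate 2, was not called, at 12.6 to 25.6 FPKM in the MCAGF8 vault and 16.5 to 48.4 FPKM in the base.

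Of 9 tested genes of myelin and axon contact, Mag, Mal and Ugt8a fell and Cldn19, the claudin of Schwann cell junctions, rose. Ugt8a, which makes the myelin lipid galactosylceramide, was at 0.166, 0.0985 and 0.0691 FPKM in the MCAGF8 vault and 0.927, 1.79 and 2.31 FPKM in the base. Pmp22, a peripheral myelin gene that mesenchyme also transcribes, was not called, at 237 to 303 FPKM in the MCAGF8 vault and 187 to 197 FPKM in the base. The myelin enzyme gene Cnp was not called either, at 18.1 to 34.1 FPKM and 22.7 to 66.9 FPKM. Of the ligands and co-receptors, Nrg1, the neuregulin that precursors need, and Ntf3, a neurotrophin, fell. Ntf3 was at 3.74, 4.86 and 3.90 FPKM in the MCAGF8 vault and 17.5, 7.62 and 15.5 FPKM in the base, and fell by 1.42 (limma adjusted p = 0.0244). Erbb2, the partner of Erbb3, was not called, at 40.4 to 57.6 FPKM against 35.7 to 41.7 FPKM, and nor was the neurotrophin co-receptor Sort1, at 39.4 to 49.3 FPKM against 25.0 to 45.6 FPKM.

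Of these 21 calls, 7 held in every alternative, among them Ednrb, Gjc3, Rxrg, Sox2 and Ugt8a. The count was 13 without control vault replicate 1, 12 without control vault replicate 3, and 7, 11 and 11 without MCAGF8 replicate 1, 2 and 3.

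Between the control tissues, 8 of the 39 were called, where 3.06% of all genes were called (1.85% higher and 1.21% lower), with a list median of 0.85. Of these calls 7 were higher and 1 was lower in the base, and Dhh, Ednrb, L1cam, Gjc3, Scn7a and Cadm4 were among the higher ones. Dhh rose by 1.55 (limma adjusted p = 0.0622) from 1.03, 0.781 and 0.995 FPKM in the control vault to its base level given above. No call held in every alternative: the count was 1 without any 1 of the control vault libraries, 2, 4 and 1 without MCAGF8 replicate 1, 2 or 3, and 14, 13 and 3 without base replicate 1, 2 or 3.

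**Figure D4:**
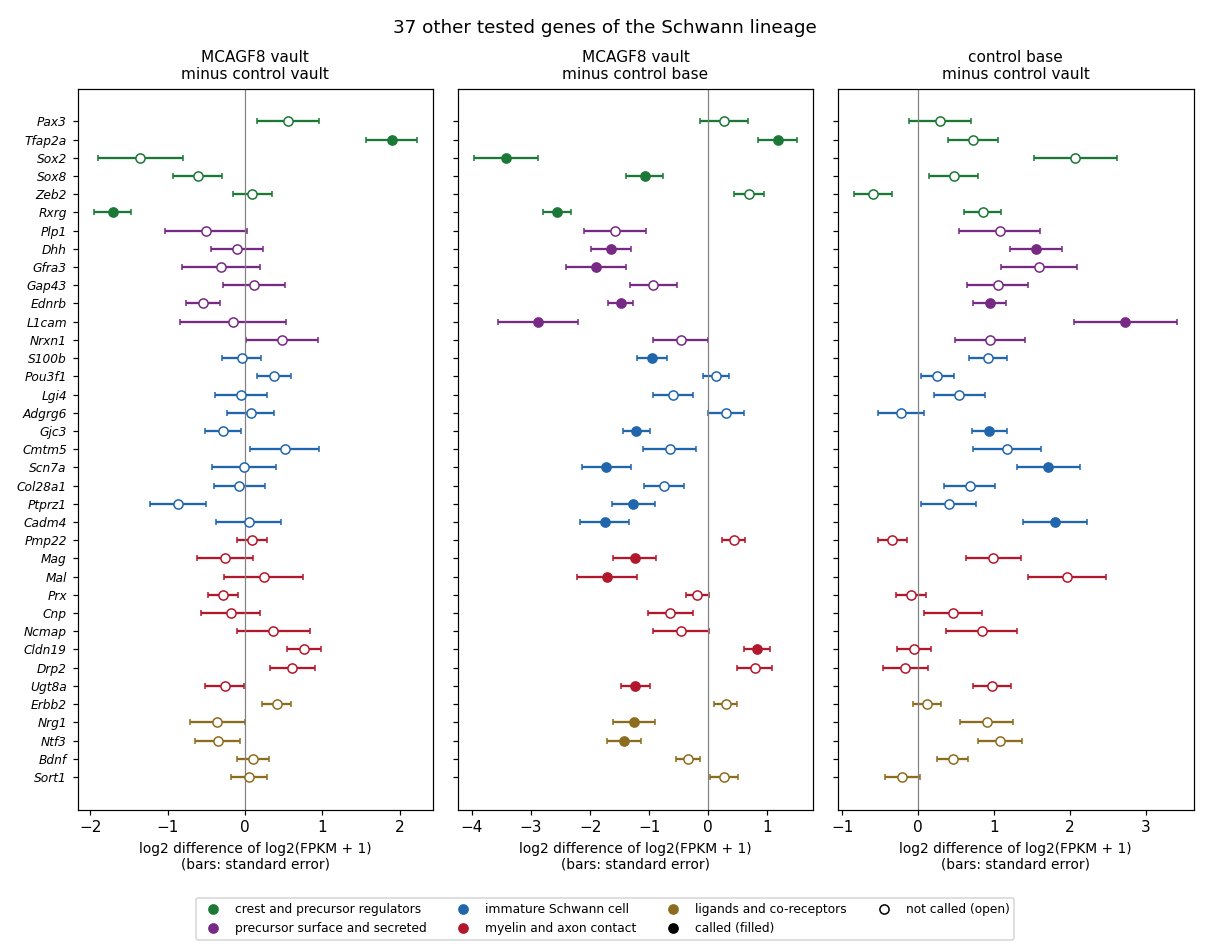
Differences of 37 of the 39 tested genes of the Schwann lineage beside the 8 (rows) on the log2(FPKM + 1) scale in the 3 comparisons, colored by role, with the standard error as bars, filled where called and open where not. Filled points number 2, 19 and 6 from left to right, and most in the middle panel lie left of 0.

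Markers of the neurons of cranial nerves and ganglia moved with the 8 genes. In the base, 11 markers of peripheral neurons summed to 624, 651 and 2700 FPKM, against 32.4 to 93.4 FPKM in the control vault and 52.9 to 87.3 FPKM in the MCAGF8 vault, and the 8 glial genes summed to 196, 230 and 439 FPKM in the base. Base replicate 3 had most of both. Prph, the intermediate filament of peripheral neurons, was at 92.1, 104 and 559 FPKM in the base and at 0.911 to 11.3 FPKM over the vaults. The part of neuronal tissue in the higher base levels was not tested. Between the vaults the neuron sums overlapped, but most of the MCAGF8 sum was Stmn2 (46.8, 73.2 and 33.0 FPKM, against 35.8, 12.1 and 40.3 FPKM in the control vault). Of the 11 neuron markers, 8 were lower in the MCAGF8 vault and 3 higher, with a median difference of -0.47 (-0.58 for the 8 glial genes). In the limma fit 0 of the 11 had a raw p under 0.05 between the vaults, where 6.34% of all genes did. With so low a share over all genes, nothing is read from that count. Only 2 of the 11 were lower without overlap, where 9.35% of all genes were. These were the neurofilament genes Nefl (8.62 to 9.90 FPKM in the control vault and 5.14 to 6.74 FPKM in the MCAGF8 vault) and Nefm (2.58 to 4.34 FPKM and 1.59 to 2.23 FPKM). The sums of the 8 glial genes, most of which is Fabp7 and Ngfr, were 83.7 to 159 FPKM in the control vault and 44.6 to 60.0 FPKM in the MCAGF8 vault. The part of neuronal tissue in the vault differences was not tested either.

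Markers of melanocytes, which also use Sox10, went the opposite way to Sox10 between the vaults. The 10 of them summed to 3.70, 5.12 and 3.27 FPKM in the control vault and 26.1, 22.7 and 26.1 FPKM in the MCAGF8 vault. Dct, an enzyme of melanin synthesis, was at 0.0568, 1.17 and 0.162 FPKM in the control vault and 8.91, 7.25 and 9.56 FPKM in the MCAGF8 vault, and Mlana was listed at 0 in all 3 control vault libraries and at 1.52 to 2.67 FPKM in the MCAGF8 libraries. In the base, replicate 2 (22.2 FPKM) stood above replicates 1 and 3 (2.16 and 5.30 FPKM). Between the same vaults the epidermis sums too were higher in MCAGF8 libraries, by the values given beside Tfap2a. The part of melanocytes and of epidermis in the levels of Sox10 and the other glial genes was not tested.

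**Figure D5:**
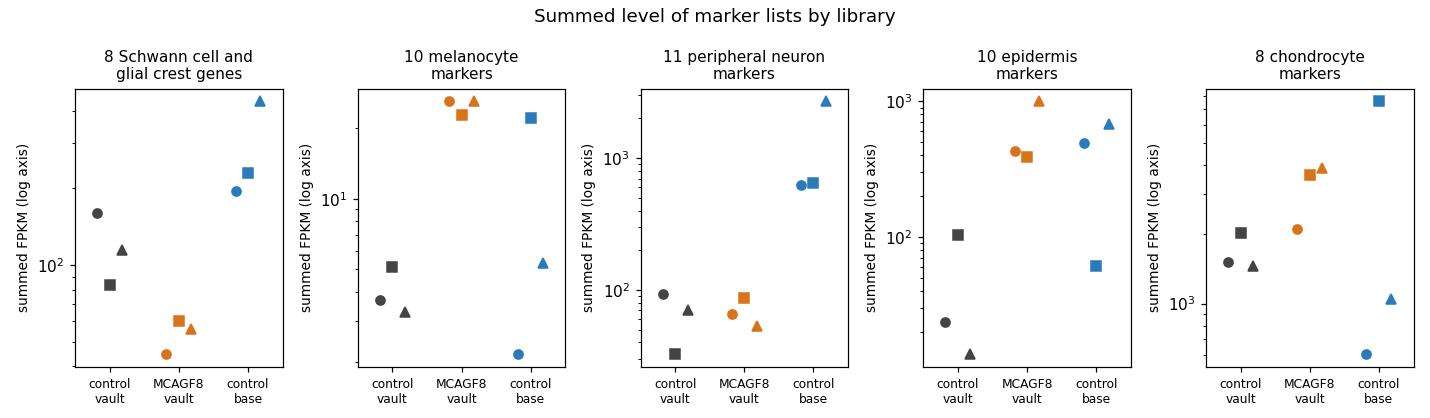
Summed FPKM (log axes) of the 8 Schwann cell and glial crest genes and of markers of melanocytes, peripheral neurons, epidermis and chondrocytes, with circles, squares and triangles for replicates 1, 2 and 3. The 8 genes and the melanocyte markers order the vaults in opposite ways, and the neuron markers are highest in the base (624 to 2700 FPKM).

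Other cell types differed between the tissues too. The 8 osteoblast markers summed to 3055, 1348 and 3282 FPKM in the control vault, 161, 284 and 140 FPKM in the MCAGF8 vault and 488, 487 and 1356 FPKM in the base. The chondrocyte markers summed to 1463 to 2039 FPKM in the control vault and 2116 to 3878 FPKM in the MCAGF8 vault. Sums of 6 meninges markers overlapped among all groups (252 to 462 FPKM), as did those of the 6 oligodendrocyte markers, in which Cspg4, a gene of pericytes as well, made up most. The 6 macrophage markers summed to 150 to 187, 162 to 225 and 72.6 to 124 FPKM in the control vault, MCAGF8 vault and base. The part of these shifts in tissue makeup in the levels of the 8 glial genes was not tested.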

How the data were processed

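RNAseq was analyzed in 9 libraries of 3 groups, with 3 libraries in each. From single-end reads of stranded mRNA libraries, placed on the mouse genome by gSNAP, the authors obtained FPKM with Cufflinks, and deposited 1 table of FPKM by Ensembl identifier. Genome build, annotation and program versions: not given in the sources used here. Members and gene lists were chosen with earlier results of these data known. Rows that repeated an identifier (63) were summed, and 9 genes with 17 placeholder cells were left out. FPKM were not rescaled. Values were put on log2(FPKM + 1), and limma 3.58.1 (R 4.3.3, group means, eBayes with trend, two-sided), checked on simulated data, was fitted to the 18714 genes averaging 0.5 FPKM or more. Calls required p under 0.05 and, adjusted by Benjamini-Hochberg, p under 0.1. With 3 libraries against 3, an exact permutation test cannot go below 0.1, so none was used for single genes. The read depth behind each value is unknown, and precision is given by the SD of 3 pools.

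Gene coordinates come from GENCODE M21 (GRCm38) by Ensembl identifier. Genes were named by a rule: the 8 members, every called gene of the 43 other lineage genes and the 2 of each role with the highest mean FPKM, the 10 genes most like the mean of the members and the 5 most like Sox10 by Pearson's r, and single markers where a list is at 0 or moves with a member. Some genes that the rule selects are counted but not reported here by name. Gfap, Gldn, Pmp2, Gjb1 and Fgf8 were named outside it after their values had been seen. Of 12 peripheral neuron markers, Tubb3 was not analysed here. Alternatives were a pseudocount of 0.1, a filter at 5 FPKM or none, quantile normalization, libraries rescaled to sum to 1000000, a fit of the compared groups alone, a block on replicate number, no moderation, the unadjusted p alone, the highest row of a repeated identifier, and each library left out. Other software was Python 3.11.15 with pandas 2.3.3, numpy 2.4.6 and matplotlib 3.10.9.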

Additional observations from a re-analysis of the deposited data

How the results depend on the processing

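The log2 differences of the 8 genes moved in size with single libraries and the pseudocount. Between the vaults Fabp7 ranged from -3.44 to -0.77 over the alternatives, Foxd3 from -2.16 to -0.96 and Sox10 from -1.29 to -0.30, and between the control tissues Fabp7 ranged from 0.55 to 3.22 and Ngfr from 0.29 to 1.20. Of 423 alternative values for their 24 log2 differences, 413 lay within 1 SD between replicates of the value given, and 2 differences changed sign somewhere: Cdh19 between the vaults and Egr2 between the control tissues (-0.05 under quantile normalization in place of 0.23). The SD used here is the residual SD of each gene in the limma fit, on the log2 scale and shared by the 3 groups. It is wide for genes whose replicates differ, so this is a loose yardstick. A pseudocount of 0.1 enlarged the differences of the low genes. Rescaling each library to a sum of 1000000 moved the median of all genes to 0.13 between the vaults and 0.11 between the MCAGF8 vault and the base, and the 8 genes kept their directions there except Cdh19 between the vaults (0.02).

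Counts of calls among the other lineage genes moved more. In the comparison of the vaults (2 calls), there was 1 call with no filter or with a mean FPKM of at least 5, 0 without moderation (limma, 6 genes at a raw p under 0.05), and 6 at the raw p alone. Against the base (21 calls), a mean FPKM of at least 5, the libraries of both groups alone, and no moderation each gave 10. Between the control tissues (8 calls), there were 4 with no filter, with a mean FPKM of at least 5 or with quantile normalization, 5 after rescaling, 1 with the libraries of both groups alone or no moderation, and 20 at the raw p. Leaving out 1 library gave 0 to 2, 7 to 23 and 1 to 14 calls. The alternative chosen after seeing the data, which left out control vault replicates 1 and 3, gave 0, 10 and 0 calls, with 3 and 10 genes of the list at a raw p under 0.05 in the first and last comparison. A filter at 5 FPKM leaves fewer genes in the test, no filter leaves more (27685), and left-out libraries leave fewer samples. Counts did not always fall with fewer samples: between the control tissues they were 14 and 13 without base replicate 1 and 2. The causes of these changes were not tested.

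The replicate number as a block gave 0, 16 and 4 calls. Same-numbered libraries did not deviate together, with correlations of 0.37, -0.07 and -0.43 between the vaults and of -0.41, 0.0003 and 0.24 between the control tissues. The numbers were therefore not used to pair libraries. With 3 libraries a group, these values cannot settle whether control pools share embryos.

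Over all genes, 113, 1571 and 573 were called, with ranges over the alternatives of 0 to 1186, 559 to 4580 and 20 to 2396. Quantile normalization turned the split of calls higher and lower from 558 and 1013 to 1153 and 810 against the base, and from 347 and 226 to 236 and 390 between the control tissues. After rescaling, the former split was 776 and 829. The unknown read depth limits what can be said of genes below 1 FPKM, such as Cdh19.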
